A study of Rattus norvegicus with 6 samples.

Results

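The aryl hydrocarbon receptor (AhR) and the cytochrome P450 enzymes of family 1 that it controls were followed probe by probe in rat liver. The 7 genes named for this system were Ahr, Arnt, Ahrr, Cyp1a1, Cyp1a2, Cyp1b1 and Tiparp. Array probes were assigned to them by the RefSeq accession printed with each probe, which gave 8 of the 61657 probes other than controls. These 8 probes stood for 6 of the 7 genes: Cyp1a2 and Cyp1b1 had 2 probes each, Ahr, Arnt, Ahrr and Cyp1a1 had 1 each, and 0 probes matched Tiparp. All came from 6 livers of male Sprague-Dawley (Crl:CD(SD)) rats, bought at 5 weeks of age, on 1-colour oligonucleotide arrays with 1 array per animal. In the phenolphthalein group, 3 rats received 1000 mg/kg/day of this former laxative and pH indicator dye, and in the corn oil group, 3 rats received the vehicle. The duration is given as 28 days in the design text and as 9 weeks in the treatment protocol. The 3 phenolphthalein arrays shared slide 2 and the 3 corn oil arrays slide 1, scanned on separate days, so that treatment, slide and scan cannot be told apart in any difference given here.

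AhR is a ligand-activated transcription factor of the bHLH-PAS family that waits in the cytosol with a chaperone complex. On binding planar aromatic compounds such as dioxins or tryptophan metabolites it enters the nucleus, pairs with ARNT and binds xenobiotic response elements, whose core is GCGTG, near its target genes. Cyp1a1 is the classical inducible target and is scarcely expressed in untreated liver, Cyp1a2 is expressed constitutively in hepatocytes and is further inducible, and Cyp1b1 belongs mainly to tissues outside the liver. AHRR, the AhR repressor, and TIPARP, a mono-ADP-ribosyltransferase, are induced by AhR and act back on it.

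Upstream sequence was available for 6 of the 7 genes. The 3 windows shown were picked by signal: a strongly expressed target and targets near the detection limit. Each is the 250 bases before the annotated start, from RefSeq on build GRCr8, on the strand of the gene and from 5′ to 3′. Capitals mark GCGTG on either strand, which reads CACGC where it lies on the other strand. The windows are chr8:66978150-66978399, minus strand, for Cyp1a2, chr1:30821969-30822218, plus strand, for Ahrr and chr6:21094315-21094564, plus strand, for Cyp1b1.
Cyp1a2: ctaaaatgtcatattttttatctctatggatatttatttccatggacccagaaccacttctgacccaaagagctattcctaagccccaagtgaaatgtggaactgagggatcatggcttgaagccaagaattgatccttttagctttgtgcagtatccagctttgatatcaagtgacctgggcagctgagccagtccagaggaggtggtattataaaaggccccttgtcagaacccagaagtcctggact
Ahrr: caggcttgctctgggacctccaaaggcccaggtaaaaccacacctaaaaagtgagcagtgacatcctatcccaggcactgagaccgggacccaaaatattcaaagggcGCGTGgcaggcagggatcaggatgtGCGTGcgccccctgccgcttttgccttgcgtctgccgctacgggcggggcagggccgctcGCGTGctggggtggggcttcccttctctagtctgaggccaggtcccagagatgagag
Cyp1b1: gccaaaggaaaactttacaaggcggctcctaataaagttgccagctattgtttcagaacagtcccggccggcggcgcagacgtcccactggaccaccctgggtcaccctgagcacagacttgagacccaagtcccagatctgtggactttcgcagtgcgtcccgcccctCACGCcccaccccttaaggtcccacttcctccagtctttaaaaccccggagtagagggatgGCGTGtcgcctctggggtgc
The Cyp1a2 window held 0 copies of GCGTG, the Ahrr window 3 and the Cyp1b1 window 2. Their content of G and C differed too, at 44.0%, 62.0% and 59.2%, where the median of rat windows was 51.2%. GCGTG consists mostly of these bases, and whether its count goes with expression was not tested. Of the other windows, Arnt and Tiparp held 1 copy each and Ahr held 0. Searched in the same way on both strands, GCGTG occurred in 25.9% of 33469 rat upstream windows of this length. The longer form TNGCGTG, which contains GCGTG and so overlaps it, occurred in 4.09% of them, and 1 copy each lay in the Ahrr and Cyp1b1 windows. A match describes letters and not a bound site, and the known response elements of Cyp1a1 lie further upstream than such a window. Cyp1a1 and Cyp1a2 are neighbours on the chromosome, with 0 protein-coding genes annotated between them.

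The comparison asked whether transcripts of this system differed between phenolphthalein and corn oil livers. Cyp1a2 was the brightly measured target, and its mean was 1.38 times as high with phenolphthalein, seen by both of its probes. Ahr and Arnt had higher means too, by 1.73 and 1.43 times. Cyp1a1 lay at the edge of detection, and Ahrr and Cyp1b1 were well above background on 0 of 6 arrays. None of the 4 member probes that could be tested passed limma's test over all probes.

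Values are the log2 of the background-subtracted Cy3 signal relative to the 75th percentile of the same array, so 0 is the 75th percentile and 1 unit is a doubling. To be tested, a probe had to carry the scanner software's mark for a signal well above background on 3 or more of the 6 arrays, counted over both groups together. Of the 8 member probes, 4 passed this filter (Ahr, Arnt and both of Cyp1a2), each marked on 6 of 6 arrays, and 4 did not (Ahrr, Cyp1a1 and both of Cyp1b1). Limma's moderated test was fitted to all 39410 probes that passed, with Benjamini-Hochberg adjustment and a threshold of 0.05. It called 19 probes, 0.0482% of those tested, of which 18 were higher and 1 lower. Of the member probes 0 of 4 were called by limma, and 3 had an unadjusted p under 0.05, all with a higher mean, where 6.84% of all tested probes were higher with such a p. Both probes of Cyp1a2 are among these 3, and they measure 1 transcript.

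**Figure D1:**
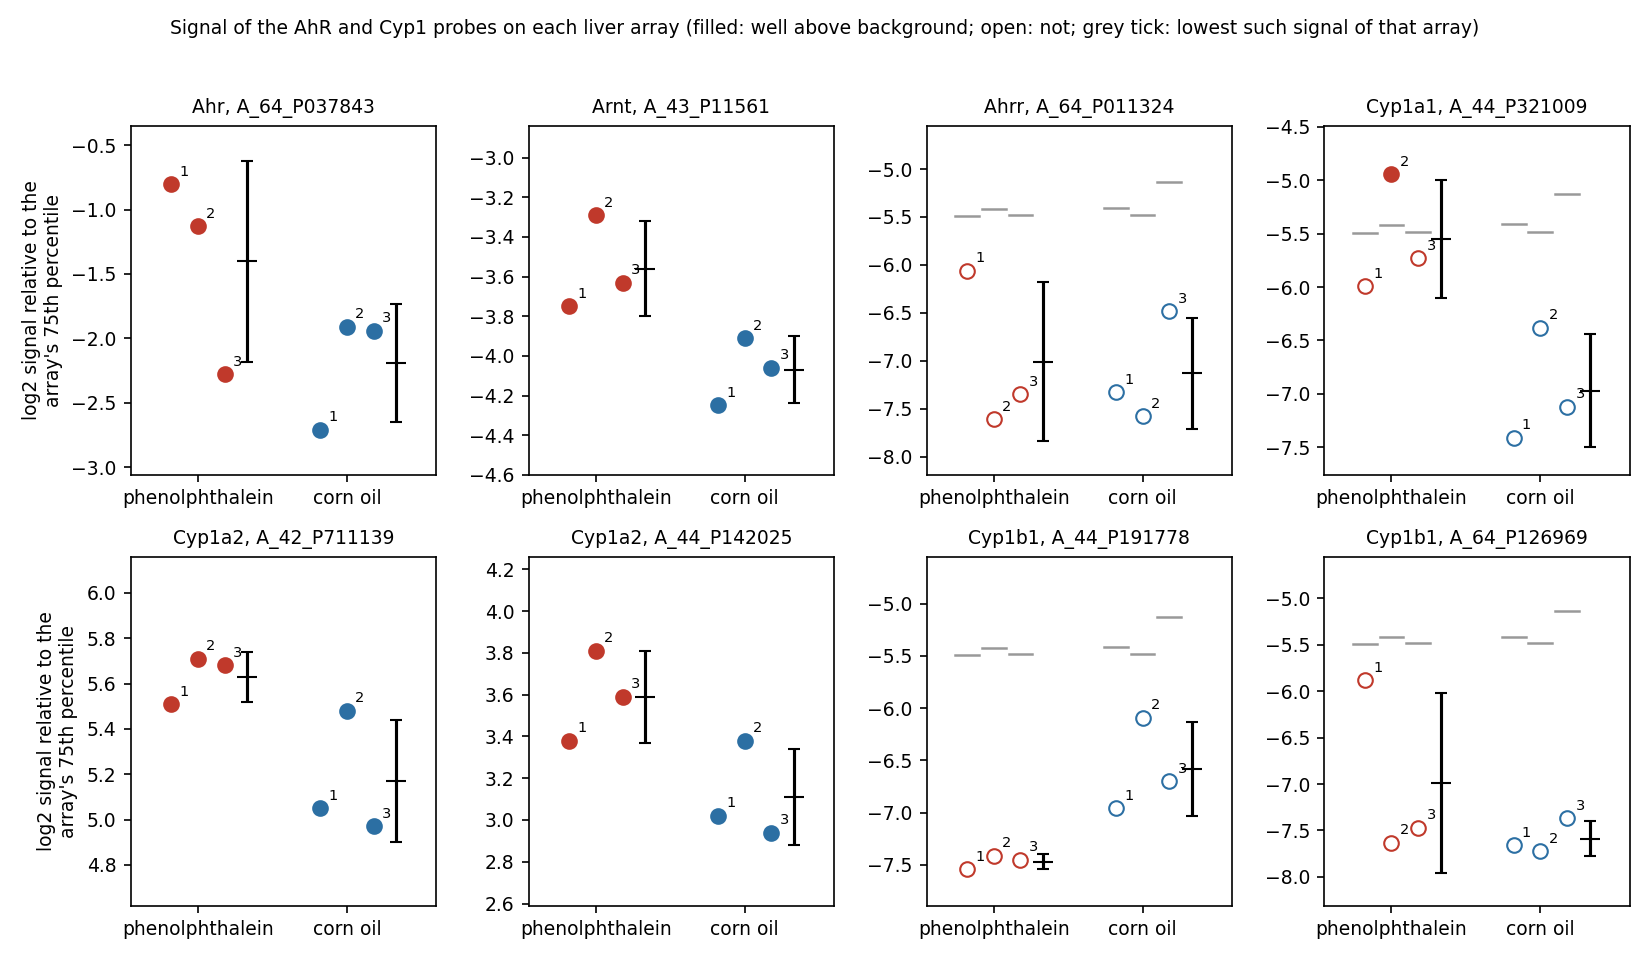
Log2 signal relative to the array's 75th percentile (y axis) of each of the 8 probes in phenolphthalein livers (left, red) and corn oil livers (right, blue); numbers are replicates, black bars are mean ± SD (n = 3 each), filled points are well above background and grey ticks mark the lowest such signal of each array. The Cyp1a2, Ahr and Arnt points are all filled, whereas of the Ahrr, Cyp1a1 and Cyp1b1 points only Cyp1a1 on phenolphthalein replicate 2, at -4.94, is.

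The receptor itself was measured by 1 probe (A_64_P037843, NM_013149). Ahr read -0.80, -1.13 and -2.28 log2 units in phenolphthalein replicates 1 to 3, against -2.71, -1.91 and -1.94 in corn oil replicates 1 to 3. The groups overlapped, since phenolphthalein replicate 3 lay below 2 of the 3 corn oil livers. The mean was -1.40 ± 0.78 with phenolphthalein and -2.19 ± 0.46 with corn oil (SD, n = 3 each). The log2 fold change was 0.79 ± 0.43 (SE), a ratio of 1.73 with a 95% interval of 0.83 to 3.59, and limma's adjusted p was 0.481. The standard error was among the larger ones, as large or larger for only 5.2% of all tested probes. Leaving out phenolphthalein replicate 3 gave a log2 fold change of 1.23 (limma adjusted p = 0.297), and leaving out phenolphthalein replicate 1 or corn oil replicate 1 gave 0.49 or 0.52, so single livers decided its size.

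ARNT, the partner with which AhR binds DNA and which HIF factors share, was also read by 1 probe (A_43_P11561, NM_012780). Arnt read -3.75, -3.29 and -3.63 in phenolphthalein livers, against -4.25, -3.91 and -4.06 in corn oil livers. All 3 phenolphthalein livers lay above all 3 corn oil livers, as they did for 11.8% of all tested probes. The log2 fold change was 0.52 ± 0.16 (SE), a ratio of 1.43 with a 95% interval of 1.1 to 1.86, and limma's adjusted p was 0.285. With normexp background correction of the median spot signal and an offset for all spots, it was 0.27 (limma adjusted p = 0.245).

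Cyp1a2 codes for a hepatocyte P450 that oxidises caffeine, aromatic amines and similar planar substrates. The first of its probes (A_42_P711139, NM_012541) read 5.51, 5.71 and 5.68 in phenolphthalein livers, against 5.05, 5.48 and 4.97 in corn oil livers. The second probe (A_44_P142025, same accession) read 3.38, 3.81 and 3.59 with phenolphthalein, against 3.02, 3.38 and 2.94 with corn oil. Replicate 2 was the highest liver of each group on both probes, as it was for Arnt, and corn oil replicate 2 came close to phenolphthalein replicate 1. On the first probe the groups did not overlap, by a narrow margin, and on the second probe these same 2 livers both read 3.38. All phenolphthalein livers lay above all corn oil livers for 11.8% of all tested probes.

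The first Cyp1a2 probe averaged 5.63 ± 0.11 with phenolphthalein and 5.17 ± 0.27 with corn oil (SD, n = 3 each), a log2 fold change of 0.47 ± 0.16 (SE). This is a ratio of 1.38 with a 95% interval of 1.06 to 1.8, which is not adjusted for the number of probes, and limma's adjusted p was 0.318. For the second probe the log2 fold change was 0.48 ± 0.17 (SE), a ratio of 1.39 (95% interval 1.05 to 1.85) with a limma adjusted p of 0.331. Both probes put the 6 livers in the same order, apart from the tie at 3.38. A difference of this size, with this spread between livers, did not pass limma's threshold once all tested probes were taken into account.

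Cyp1a1, whose enzyme oxidises polycyclic aromatic hydrocarbons, had 1 probe (A_44_P321009, NM_012540) close to background. It read -5.99, -4.94 and -5.73 with phenolphthalein, against -7.41, -6.38 and -7.12 with corn oil, and the groups did not overlap. All phenolphthalein livers also lay above all corn oil livers for 11.8% of the tested probes, to which this probe does not belong. In processed signal these were 9.09, 18.4 and 10.3 with phenolphthalein and 3.65, 7.61 and 4.27 with corn oil. Only phenolphthalein replicate 2 was well above background, where the lowest signal so marked was 12.3 to 17 on the 6 arrays.

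By the weaker mark of a positive and significant signal, Cyp1a1 was detected on 3 of 3 phenolphthalein arrays and 1 of 3 corn oil arrays. On corn oil replicates 1 and 3 the signal was no larger than its own error estimate, 3.66 and 4.28. The phenolphthalein mean of -5.55 lay below the level that detection in the corn oil arrays allows, so no fold is given. The probe lies in an array column where 10 of 100 bright spots on phenolphthalein replicate 3 read over 2 log2 units low, and the part of this in its value was not tested. An exact two-sided permutation test of the log2 values gave p = 0.1, the smallest that 3 against 3 livers allow. Any groups without overlap give this value, so it restates the separation. When every probe was tested without a filter, the limma adjusted p of Cyp1a1 was 0.396. Both tests used the corn oil signals at their error estimate, so nothing is concluded from them.

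The repressor gene Ahrr (A_64_P011324, NM_001024285) read -6.06, -7.61 and -7.35 with phenolphthalein, against -7.33, -7.58 and -6.48 with corn oil. These values overlapped throughout and none was well above background. Cyp1b1, a P450 that hydroxylates estrogens and polycyclic hydrocarbons, was below that mark on both probes, and the means of the probes went in opposite directions. Probe A_44_P191778 (NM_012940) read -7.54, -7.41 and -7.45 with phenolphthalein, against -6.96, -6.09 and -6.70 with corn oil. The groups did not overlap, the phenolphthalein livers being lower, and the difference of means was -0.88. Such a separation was seen for 9.24% of all tested probes, to which this probe does not belong. On the phenolphthalein arrays the processed signal of this probe, 3.11, 3.31 and 3.14, was no larger than its own error estimate, 3.12, 3.32 and 3.15. The size of the difference is therefore not a measured one. Its signal was positive and significant on 0 of 3 phenolphthalein arrays and 3 of 3 corn oil arrays. The exact two-sided permutation test gave p = 0.1, the smallest possible, and without a filter limma's adjusted p was 0.394. Both tests used the phenolphthalein signals at their error estimate, so nothing is concluded from them. Probe A_64_P126969, with the same accession, read -5.88, -7.63 and -7.47 with phenolphthalein, against -7.66, -7.72 and -7.37 with corn oil. Replicate 1 of the phenolphthalein group alone stood out. This probe carried the weaker mark on 3 of 3 phenolphthalein arrays and 0 of 3 corn oil arrays. Its corn oil signals, 3.07, 3.01 and 3.59, were no larger than their error estimates, 3.08, 3.02 and 3.6. The marked signal of phenolphthalein replicate 2, 2.84, lay below all of them, so the marks do not follow the signal. No fold is given for Ahrr or Cyp1b1, since both groups were below the mark, and expression under this limit was not detectable here.

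**Figure D2:**
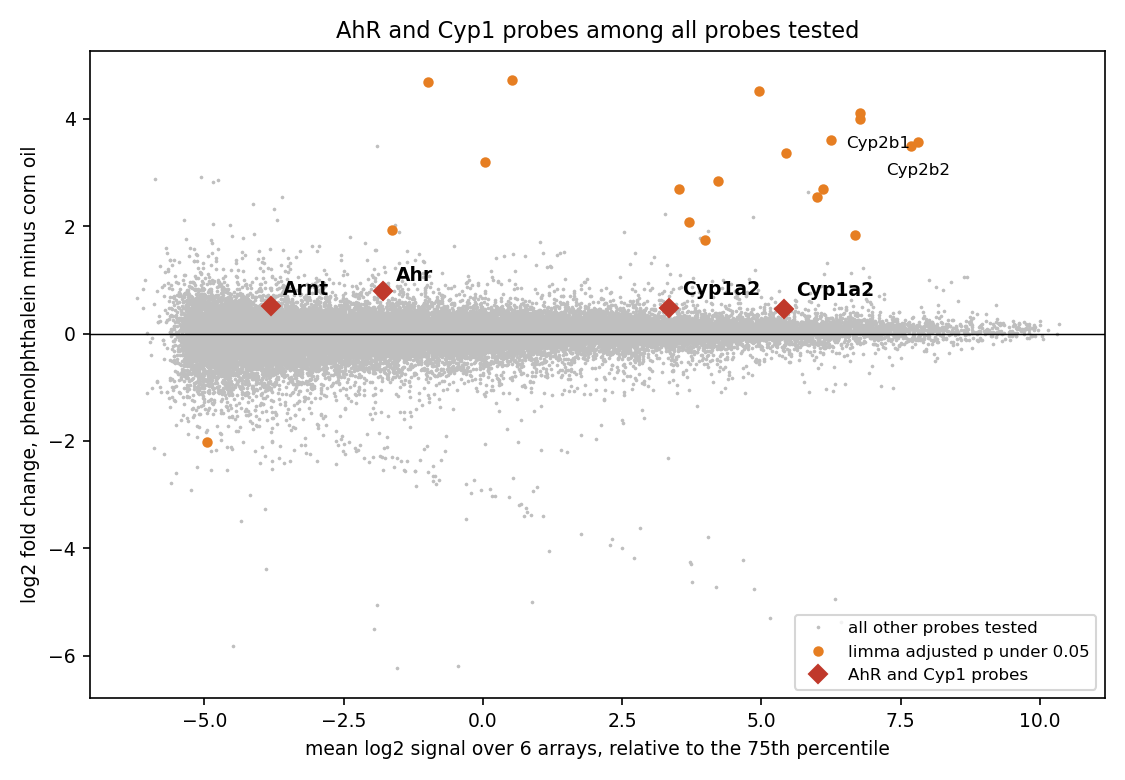
Log2 fold change, phenolphthalein minus corn oil (y axis), against the mean log2 signal over the 6 arrays (x axis) for the 39410 probes tested; orange points are those with a limma adjusted p under 0.05 and red diamonds are the member probes. The 4 red diamonds lie between 0.47 and 0.79, and the brightest Cyp2b1 and Cyp2b2 probes lie at 3.61 and 3.49.

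The size of the Cyp1a2 difference was set beside Cyp2b1 and Cyp2b2, the P450s that the receptor CAR induces in rat liver, on the same arrays. Cyp2b1 read 8.36, 8.22 and 7.62 with phenolphthalein, against 4.41, 4.55 and 4.42 with corn oil. It rose 12.2-fold on its 1 tested probe (limma adjusted p = 0.0206). Cyp2b2 rose on 5 of 5 tested probes, 5.87-fold to 22.9-fold, and 11.2-fold on the brightest (A_44_P311326, limma adjusted p = 0.0206), which is the one used here. These calls were lost without a filter (limma adjusted p = 0.0518 for both) and with the replicate block. With 1 array left out, the Cyp2b2 call was lost each time, and the Cyp2b1 call each time except without phenolphthalein replicate 3. The log2 fold changes stayed between 3.46 and 3.83 for Cyp2b1 and between 3.31 and 3.73 for Cyp2b2 in the 19 alternatives. The log2 fold change of Cyp2b1 minus that of the first Cyp1a2 probe was 3.14, and that of Cyp2b2 minus that of the same Cyp1a2 probe was 3.02. An exact two-sided permutation test of this difference within each liver gave p = 0.1 for both, the smallest possible with 3 against 3. Any groups without overlap give this value, so it adds nothing to the fold changes.

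Genes around the receptor were grouped by role in 4 lists, with the brightest tested probe for each gene. The median log2 fold change over all probes tested was 0.018. Of the 22 genes tested in these lists, 0 were called by limma and 3 had an unadjusted p under 0.05 (Arnt2, Epas1 and Tdo2), where 13.2% of all tested probes had such a p, so the lists were near the background. For the cytosolic complex that holds unliganded AhR, 3 of 3 genes were tested, with 2 higher means, 1 lower and a median of 0.05. The log2 fold change was 0.15 ± 0.15 (SE) for Hsp90ab1 and -0.06 ± 0.17 for Hsp90aa1, the HSP90 chaperones. The co-chaperone p23, coded by Ptges3, had 0.05 ± 0.13.

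Among bHLH-PAS partners and coactivators, 6 of 9 genes were tested, 3 with a higher and 3 with a lower mean, and the median was 0. Arnt2, the close relative of Arnt, read -1.59, -1.51 and -1.43 with phenolphthalein, against -1.09, -1.03 and -1.20 with corn oil. Its phenolphthalein livers all lay below its corn oil livers, as for 9.24% of all tested probes. Its mean differed in the direction opposite to Arnt, by -0.40 ± 0.09 (SE) on the log2 scale, for which limma gave an adjusted p of 0.216. Epas1, the HIF2-alpha gene, had 0.26 ± 0.10 (SE, limma adjusted p = 0.343). Nrip1, a nuclear receptor corepressor, had -0.46 ± 0.26 and Hif1a 0.12 ± 0.11.

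Other genes of the AhR battery, enzymes and regulators that AhR ligands induce besides the Cyp1 family, gave 7 tested of 8, with 6 higher means, 1 lower and a median of 0.10. Ugt1a6, a UDP-glucuronosyltransferase for planar phenols, had a log2 fold change of 0.23 ± 0.16 (SE), Xdh, xanthine dehydrogenase, 0.19 ± 0.16, and Ugdh, which makes UDP-glucuronate, -0.18 ± 0.13. Aldh3a1, an aldehyde dehydrogenase scarcely expressed in normal liver and strongly induced by AhR ligands in the rat, read -0.63, -0.57 and -0.84 with phenolphthalein, against -0.56, -0.93 and -0.85 with corn oil. These values overlapped, and the log2 fold change was 0.10 ± 0.13. Nqo1, a quinone reductase under AhR and NRF2, had 0.06 ± 0.43, and its phenolphthalein livers ranged from 0.65 to 2.11.

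The kynurenine pathway turns tryptophan into metabolites of which kynurenine is a known AhR ligand. Of its 8 genes 6 were tested, 4 with a higher and 2 with a lower mean, and the median was 0.15. Tdo2, the liver enzyme of the opening step, read 7.08, 7.48 and 7.33 with phenolphthalein, against 6.21, 6.44 and 6.98 with corn oil. The phenolphthalein livers all lay above the corn oil livers, as for 11.8% of all tested probes, and the log2 fold change was 0.75 ± 0.22 (SE, limma adjusted p = 0.281). Afmid, which releases kynurenine, had 0.39 ± 0.20 and Kmo, which hydroxylates it, -0.17 ± 0.09, and the Ido1 probe did not pass the filter.

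**Figure D3:**
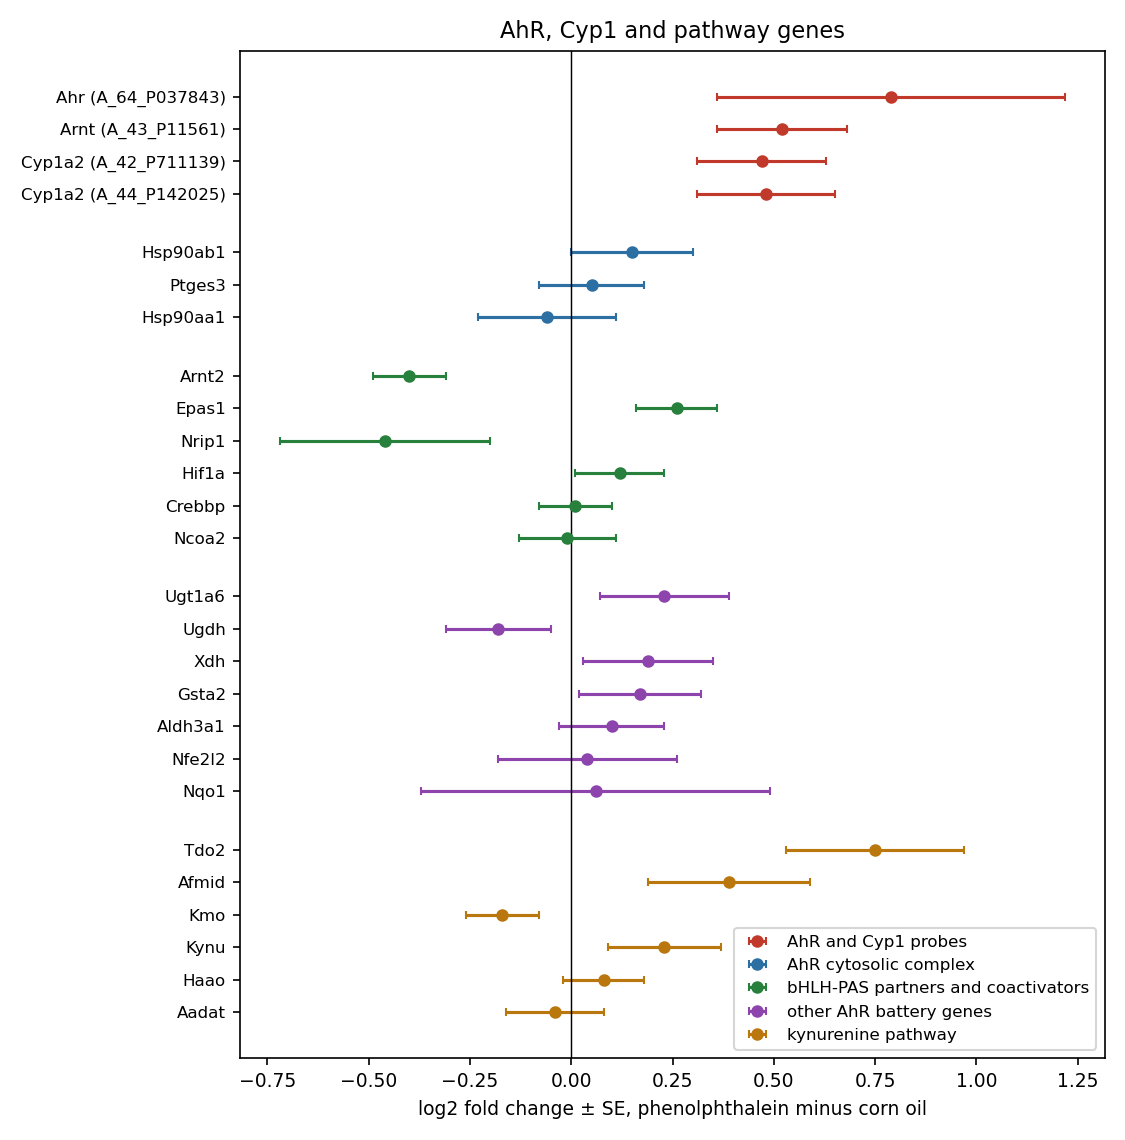
Log2 fold change ± SE, phenolphthalein minus corn oil (x axis; n = 3 livers each), of the 4 tested member probes (red) and of the tested genes of the 4 pathway lists. The member probes lie at 0.47 to 0.79, while the list genes run from -0.46 for Nrip1 to 0.75 for Tdo2.

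Genes with the most similar course over the 6 arrays were sought among 10772 named genes that were well above background on every array. For Cyp1a2 these were Psma1, a proteasome subunit, with Pearson r = 0.996, Nxt1, an mRNA export factor, with 0.988, and Vcp, an AAA ATPase, with 0.988. For Ahr they were Syt6 (0.989), Acyp1 (0.988) and Rad9b (0.978). These are descriptions over 6 arrays that share their slides and groups, and 203 genes for Cyp1a2 and 95 for Ahr exceeded r = 0.9.

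The labelled tissue was checked against hepatocyte markers. All 7 of these genes were measured, with log2 fold changes from -0.22 to 0.33 and a median of 0.03. Alb, whose difference was the smallest of them, read 9.59, 9.59 and 9.61 with phenolphthalein, against 9.59, 9.54 and 9.63 with corn oil. Markers of hepatocytes around the central vein, the zone where Cyp1a2 is known to be expressed, had a lower mean for 8 of 8 genes with a median log2 fold change of -0.27, opposite in direction to Cyp1a2. Their summed linear signal ran from 366 to 433 times the 75th percentile with phenolphthalein and from 397 to 484 with corn oil, and these ranges overlapped. Most of this sum was Cyp2e1, also a hepatocyte marker, which averaged 8.33 with phenolphthalein and 8.55 with corn oil. The next brightest, Oat, averaged 5.71 and 5.79. Kupffer cell and macrophage markers had a lower mean for 8 of 8 genes, with a median of -0.64 and sums of 134 to 175 with phenolphthalein and 181 to 258 with corn oil. All 4 tested lymphocyte markers and all 6 stellate cell markers had lower means, with medians of -0.40 and -0.26, and limma called 0 of the marker genes. With an unadjusted limma p under 0.05, 7 of the Kupffer cell markers and 3 of the lymphocyte markers were lower. So were the stellate cell marker Col1a1 and the central vein marker Glul, as were 6.37% of all tested probes. The bile duct marker Epcam was higher with such a p, as were 6.84% of all tested probes. The tested markers of sinusoidal endothelium, bile duct and pancreas had median log2 fold changes of -0.08 (4 genes), 0.29 (3 genes) and 0.02 (2 genes). In whole liver RNA, fewer cells of a type and less RNA per cell cannot be told apart. The part of these markers in the values of Cyp1a2, Ahr and Arnt was not tested.

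**Figure D4:**
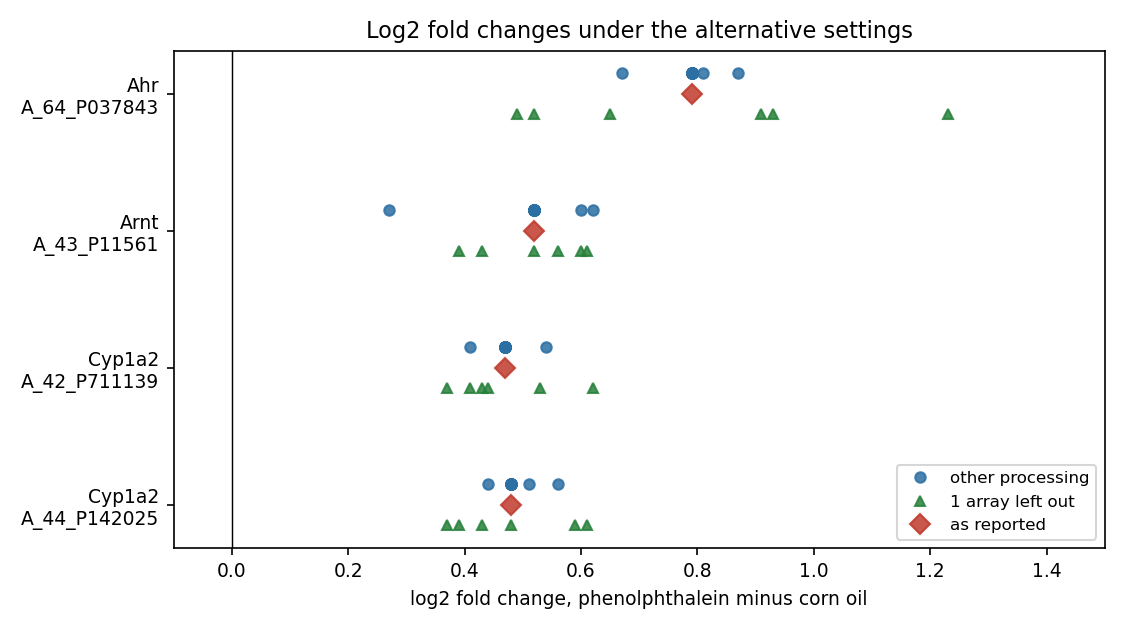
Log2 fold change, phenolphthalein minus corn oil (x axis), of the 4 tested member probes as reported (red), with 1 array left out (green) and with other processing (blue). All points lie above 0, from 0.27 for Arnt to 1.23 for Ahr.

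Leaving out each liver in turn showed how far the tested probes rested on single animals. The mean was higher with phenolphthalein for 4 of 4 probes in each of these 6 fits. The log2 fold change of the first Cyp1a2 probe ran from 0.37 without corn oil replicate 3 to 0.62 without corn oil replicate 2. The number of member probes with an unadjusted limma p under 0.05 was 3 with all livers and 0 without corn oil replicate 1. It was 1 without phenolphthalein replicate 2 or corn oil replicate 3, and 2 without phenolphthalein replicate 3. The share of all tested probes with such a p was not computed in these fits. The changes in this number can therefore not be told from those of a fit with fewer arrays.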

How the data were processed

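Liver RNA was read in the Cy3 channel. Spot intensity in the deposited scanner files came from Feature Extraction (version 10.7.1.1 per the file headers, 10.7 per the submitters' processing notes). It is background-subtracted and, between arrays, unscaled. The deposited value table is that same intensity over a single factor for each array, near its 75th percentile. It is linear with the same direction, and its column medians were 0.0954, 0.0941 and 0.0959 for phenolphthalein and 0.0984, 0.101 and 0.102 for corn oil.

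The 75th percentile of the 61657 spots other than controls was 551 to 578 for phenolphthalein and 595 to 636 for corn oil. Spots marked as outliers, 4 to 14 per array, were set missing, and 0 were saturated. Probes were named by accession through RefSeq on GRCr8 (27460 probes with 1 gene). The upstream windows and the order of neighbouring genes are those of GRCr8, and the array design's own probe positions, on another build, are not used. Limma 3.58.1 in R 4.3.3 compared phenolphthalein with corn oil on the 6 arrays with no covariate. The number of arrays limits the precision.

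Alternatives changed the background correction (normexp, offset 50, on the median spot signal), the scaling, the filter, the detection mark, the probe rule, the prior, the outlier marks, the source of values, the arrays used and the replicate block. Masking of array columns with dim spots was chosen after seeing the data. The members and lists were chosen with earlier results of these data known. Genes named are all members, Cyp2b1 and Cyp2b2, the 3 with the smallest p in each pathway list, and the 3 most like Cyp1a2 and Ahr over the 6 arrays. Alb and the other list genes named were chosen after their values were seen. 1 gene of the lists is not reported here and was left out of the counts and medians of its list.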

Additional observations from a re-analysis of the deposited data

Results flagged for a closer look

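The Cyp1a1 probe, which stayed outside the test because it was well above background on too few arrays, had a processed signal of 18.4 on phenolphthalein replicate 2, above that mark. The other phenolphthalein livers read 9.09 and 10.3, and the corn oil livers read 3.65 to 7.61, all below it.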

How the results depend on the processing

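None of the member probes and none of the pathway list genes passed limma's threshold in any of the 19 alternative settings. The log2 fold change ran from 0.49 to 1.23 for Ahr (limma adjusted p 0.297 to 0.696), 0.27 to 0.62 for Arnt (0.199 to 0.497), 0.37 to 0.62 for the first Cyp1a2 probe (0.212 to 0.533) and 0.37 to 0.61 for the second (0.221 to 0.55), with no change of sign. Counts over all probes, 18 higher and 1 lower as reported, moved more. With no filter limma called 0 higher and 0 lower, while 5 of the 8 member probes, all of which it then tested, had an unadjusted p under 0.05: Arnt, Cyp1a1 and both of Cyp1a2 higher and 1 of Cyp1b1 lower. The Cyp1a1 and Cyp1b1 probes among them had failed the filter, and both Cyp1a2 probes measure 1 transcript. The share of all probes with such a p was not computed without the filter, so this count shows nothing particular to the members. With the weaker detection mark limma called 7 higher and 2 lower. With 1 value per named gene, and so fewer features tested, 6 were higher for the brightest probe and 5 for the mean of probes. There were 2 lower with detection on all 6 arrays or with an intensity trend, and 0 to 5 higher and 0 to 1 lower without 1 array. With the replicate number as a block limma called 0 higher and 0 lower, and 3 of 4 member probes had an unadjusted p under 0.05. The share of all probes with such a p was not computed in this fit either. Same-numbered livers of the groups shared only a number, with deviations correlated at -0.01, 0.02 and 0.01, and no liver correlated best with the liver of its own number. The cause was not tested for the shifts under the detection mark, the trend, the filters and the left-out arrays. Signal under the background mark limits Cyp1a1, Ahrr and Cyp1b1.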

Other observations

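The Cyp1a1 probe lies in an array column in which 10 of 100 bright spots on phenolphthalein replicate 3 read over 2 log2 units below the median of the other arrays. On the other 5 arrays this column held 0 to 2 such spots. The Cyp1a1 spot of that array read -5.73, between the -5.99 and -4.94 of the other phenolphthalein arrays. The columns of the other member probes held at most 1 such spot on any array.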
